A study of Mus musculus with 5 samples.

Results

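The MYC and MAX network is a group of transcription factors that share a basic helix-loop-helix zipper and work as pairs. The genes taken here were Myc, Mycl, Mycn, Max, Mxd1, Mxd3, Mxd4, Mxi1, Mnt and Mga, chosen by name with earlier results of these data known. Of these 10 genes, 8 were listed among the 12934 genes of the deposited counts. Mycn and Mga were not among the listed genes and were not analysed here. All 8 listed genes were tested, together with 12483 genes in all. RNA was sequenced from EpH4 cells, an epithelial line of the mouse mammary gland (strain BALB/c). Cells of both groups carried Cas9 by lentivirus, and received a control sgRNA (sgControl, 3 libraries) or an sgRNA against Mef2d (sgMef2d, 2 libraries), each followed by drug selection. The methods of the study list more than 1 sgRNA against Mef2d, and the labels do not say which of them the sgMef2d libraries carry, or whether the libraries came from separate cultures. The p-values below therefore measure the spread between these libraries, which may be technical.

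MYC, MYCL and MYCN pair with MAX, bind the DNA sequence CACGTG, called the E-box, and recruit coactivators to genes for growth and proliferation. The MXD proteins, MXI1 and MNT compete for MAX, bind the same sites and recruit the SIN3 and histone deacetylase corepressor. MGA joins MAX to a Polycomb complex, PRC1.6, which keeps germline genes silent. In the mammary gland MYC supports the proliferation of the epithelium, and its gene is often amplified in breast cancer.

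The counts summed to between 13601145 and 20498563 per library. Mef2d RNA itself did not differ between the groups beyond the spread of the libraries (log2 fold change -0.12, edgeR adjusted p = 0.400), except without sgControl replicate 1 (-0.19, edgeR adjusted p = 0.0055). Without sgControl replicate 2 the value was -0.06, and the adjusted p of the alternatives spanned 0.0055 to 0.770. The counts do not show whether its sequence or protein was altered. The study reports, from an immunoblot, that the protein was absent in its EpH4 cells with an sgRNA against Mef2d. In a comparison of counts between pairs of libraries, where counting error alone gives a chi-square per degree of freedom near 1, sgControl replicate 1 stood at 10.4 and 13.4 from the other sgControl libraries, which stood at 1.99 from each other. Those other sgControl libraries stood between 10.6 and 12.7 from the sgMef2d libraries, which stood at 2.03 from each other. So sgControl replicate 1 was about as far from its own group as the sgMef2d libraries were. It also had the most counts, and this measure grows with the counts. The counts of genes past the threshold are therefore also given without sgControl replicate 1, where 29.4% of all genes tested passed, 14.6% higher and 14.8% lower. The markers of simple epithelium were present, with 6 of 7 listed and sums between 2437 and 2586 CPM (counts relative to library size, scaled by the TMM method of edgeR) over all libraries, with 1 higher (Cldn4) and 1 lower (Krt18) past the threshold. The sum of the 4 listed basal and myoepithelial markers, of 6 in the list, went from between 482 and 491 CPM in sgControl to between 947 and 1005 CPM in sgMef2d, with Krt14, Krt5 and Trp63 higher and Acta2 lower past the threshold. Krt5 was at or below 0.146 CPM in sgControl and at 15.3 and 14.2 CPM in sgMef2d. It was thus listed and tested only through the group where it is high. Krt14 alone made up between 436 and 443 CPM of the sgControl sums and between 875 and 929 CPM of the sgMef2d sums. Myh11 and Oxtr of this list were not listed. The sum of the 6 listed fibroblast markers, of 7, lay between 643 and 767 CPM in sgControl and between 608 and 649 CPM in sgMef2d, with 2 of the 6 higher past the threshold (Col3a1 and Dcn) and 1 lower (Col1a2). Of the other marker lists, 0 of 4 endothelial genes were listed, and the sums stayed at or below 2.29 CPM for 2 listed immune genes of 5 and 3.80 CPM for 1 adipocyte gene of 4 (Fabp4), which was lower past the threshold. Of all genes tested, 3.67% were higher and 4.28% lower. The part of these marker differences in the results below was not tested.

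In the sgMef2d cells, Myc rose and Mxd4 fell, and the other 6 network genes did not pass the threshold. The threshold was an adjusted p below 0.05, where p came from the quasi-likelihood test of edgeR and was adjusted over all genes tested (Benjamini-Hochberg). It is called the edgeR adjusted p here. Of the 8 genes, 1 was higher and 1 lower past this threshold (12.5% in each direction), where 7.95% of all genes tested passed it in either direction, 3.67% higher and 4.28% lower. With 8 genes these shares rest on single genes. Without sgControl replicate 1, 2 were higher (Myc and Mxi1) and 2 lower (Mxd4 and Mxd1), where 29.4% of all genes passed in either direction. Without sgMef2d replicate 1, 0 of the 8 passed, where 1.88% of all genes did. In bulk RNA, a change in the share of cells that express a gene and a change in RNA per cell cannot be told apart. Their median log2 fold change was 0.08, beside 0.0031 for all genes tested, and it moved between 0.02 with the length and GC trend removed and 0.12 without sgMef2d replicate 1. It was 0.04 both without sgControl replicate 3 and with the replicate block. Both sgMef2d libraries lay above all sgControl libraries in 2 of the 8 genes and below them in 2, where 20.6% and 20.5% of all genes tested did so, 41.1% together.

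Myc (ENSMUSG00000022346.15, chromosome 15 of GRCm38, 61985391 to 61990374, plus strand) encodes the activator that gives the network its name. In the sgControl libraries, replicates 1 to 3 in order here and below, it stood at 180.0, 191 and 191 CPM. The sgMef2d libraries, replicates 1 and 2, stood at 237 and 225 CPM. Both sgMef2d libraries were higher than every sgControl library. The sgControl mean was 188 ± 6.55 CPM (SD, n = 3) and the sgMef2d mean, at 231 ± 8.64 CPM (SD, n = 2), was 23.4% higher, or 0.30 on the log2 scale (standard error 0.059, 95% interval 0.17 to 0.43, edgeR adjusted p = 0.00885). Between 2610 and 4035 counts stood behind each of these values, so counting error was small. Of the 12483 genes tested, 1030 had a higher log2 fold change than Myc, so the increase was moderate in size among these genes. The call was lost without either sgMef2d library (edgeR adjusted p = 0.192 without replicate 1 and 0.0902 without replicate 2), and the alternatives spanned 3.37e-08 to 0.192.

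Mycl (ENSMUSG00000028654.13, chromosome 4, 122995652 to 123002485, plus strand), a relative of Myc with a narrower range of tissues, was close to the limit of detection. Its counts were 16, 12 and 9 in the sgControl libraries and 2 and 13 in the sgMef2d libraries. The level that a count of 0 would allow, set at 3 counts, was 0.146 to 0.220 CPM, depending on the library. The sgMef2d libraries lay on either side of the sgControl range, and the 95% interval of the log2 fold change ran from -2.0 to 0.62. With 1 sgMef2d library left out the value was 0.18 (without replicate 1) or -2.63 (without replicate 2), so the sign rested on which of them was kept.

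Max (ENSMUSG00000059436.13, chromosome 12, 76937269 to 76962201, minus strand) encodes the common partner of the network, with which the MYC proteins bind DNA. Its level was 62.3, 57.7 and 61.0 CPM in the sgControl libraries and 64.7 and 62.2 CPM in the sgMef2d libraries. These ranges overlapped. On the log2 scale the difference was 0.07 (95% interval -0.07 to 0.22, edgeR adjusted p = 0.567), so a change of Max as large as that fitted for Myc lay outside its interval.

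**Figure D1:**
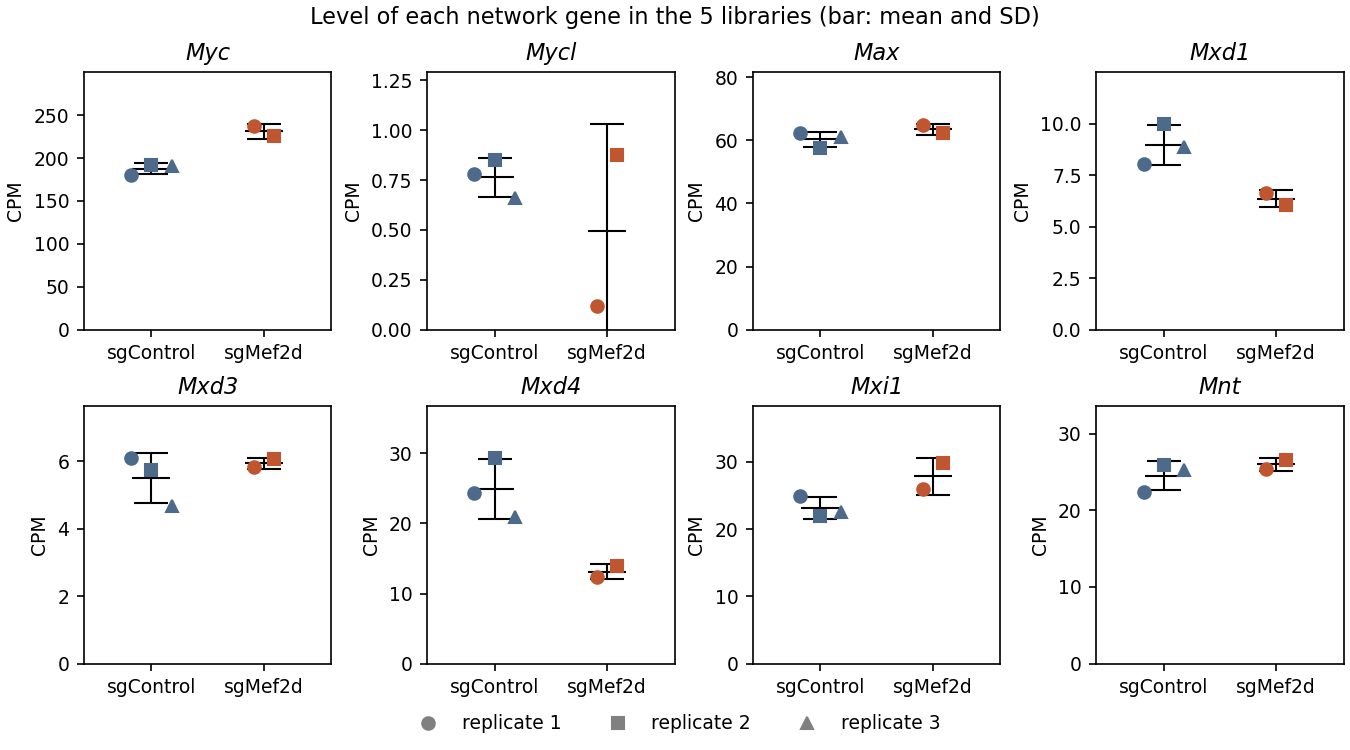
Each panel gives the level of a network gene in CPM, on an axis that starts at 0, with 1 point per library (circle, square and triangle for replicates 1, 2 and 3) and a bar for the mean and SD of each group. Both sgMef2d libraries lie above the sgControl libraries for Myc and Mxi1 and below them for Mxd1 and Mxd4, and the groups overlap in the other 4 panels.

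Among the antagonists, Mxd4 (ENSMUSG00000037235.13, chromosome 5, 34173883 to 34187720, minus strand) was the one that passed the threshold. MXD4 is a repressor associated with cells that leave the cycle and differentiate. Its level was 24.3, 29.4 and 20.96 CPM in the sgControl libraries and 12.4 and 13.9 CPM in the sgMef2d libraries. Both sgMef2d libraries were lower than every sgControl library, although the sgControl libraries also differed among themselves. The sgControl mean was 24.9 ± 4.23 CPM (SD, n = 3), and the sgMef2d mean of 13.1 ± 1.07 CPM (SD, n = 2) was 0.527 times as high. The log2 fold change was -0.93 (standard error 0.139, 95% interval -1.23 to -0.62, edgeR adjusted p = 0.00217). Of the 12483 genes tested, 164 had a lower log2 fold change than Mxd4. The call was lost without sgMef2d replicate 1 (adjusted p = 0.0513), and the alternatives spanned 3.34e-15 to 0.0513. An antisense gene, Gm42846, covers 6.06% of the exon bases of Mxd4 on the other strand. It was not among the listed genes, and whether the counting used strand is not given in the sources used here.

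Mxd1 (ENSMUSG00000001156.9, chromosome 6, 86647042 to 86669161, minus strand), a repressor that is known to increase as cells differentiate, was measured at 8.04, 9.998 and 8.87 CPM in the sgControl libraries and at 6.65 and 6.06 CPM in the sgMef2d libraries. The groups did not overlap. The log2 fold change was -0.48 (95% interval -0.81 to -0.16), which did not pass the threshold (edgeR adjusted p = 0.0736, unadjusted p = 0.00753). Without sgControl replicate 1 it passed (log2 fold change -0.57, adjusted p = 0.00459), as it did with the replicate block and with the length and GC trend removed. Over the alternatives its adjusted p lay between 0.00459 and 0.421. The values rested on 90 to 165 counts per library.

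Mxi1 (ENSMUSG00000025025.14, chromosome 19, 53310518 to 53375810, plus strand) encodes another repressor of the MXD family. Its level was 25.0, 21.98 and 22.5 CPM in the sgControl libraries and 25.95 and 29.8 CPM in the sgMef2d libraries. Both sgMef2d libraries were above the sgControl range, sgMef2d replicate 1 by a small margin. The fitted log2 fold change was 0.26 (95% interval 0.05 to 0.47, edgeR adjusted p = 0.134). Without sgControl replicate 1 the value was 0.32 (edgeR adjusted p = 0.00382), and without sgMef2d replicate 2 it was 0.15. The alternatives spanned 0.00382 to 0.696. The intervals of Mxi1 and Mxd4 did not overlap.

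Mxd3 (ENSMUSG00000021485.14, chromosome 13, 55325168 to 55329823, minus strand) is the family member known from cycling cells. It was measured at 6.09, 5.74 and 4.69 CPM in the sgControl libraries and at 5.83 and 6.06 CPM in the sgMef2d libraries. Its log2 fold change was 0.09 (95% interval -0.27 to 0.45), and the sign turned without sgControl replicate 3 and with the replicate block. Replicate 3 exists only in sgControl, so the block takes up that library and these settings are not separate checks. Prelid1, which overlaps 4.43% of the exon bases of Mxd3 on the other strand, was at 335 CPM in sgControl, far above Mxd3 (log2 fold change 0.04, edgeR adjusted p = 0.761). Mnt (ENSMUSG00000000282.12, chromosome 11, 74830920 to 74845725, plus strand), the antagonist found in most tissues, was measured at 22.4, 25.95 and 25.2 CPM in the sgControl libraries and at 25.4 and 26.6 CPM in the sgMef2d libraries. The groups overlapped (log2 fold change 0.09, 95% interval -0.11 to 0.29, edgeR adjusted p = 0.615).

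**Figure D2:**
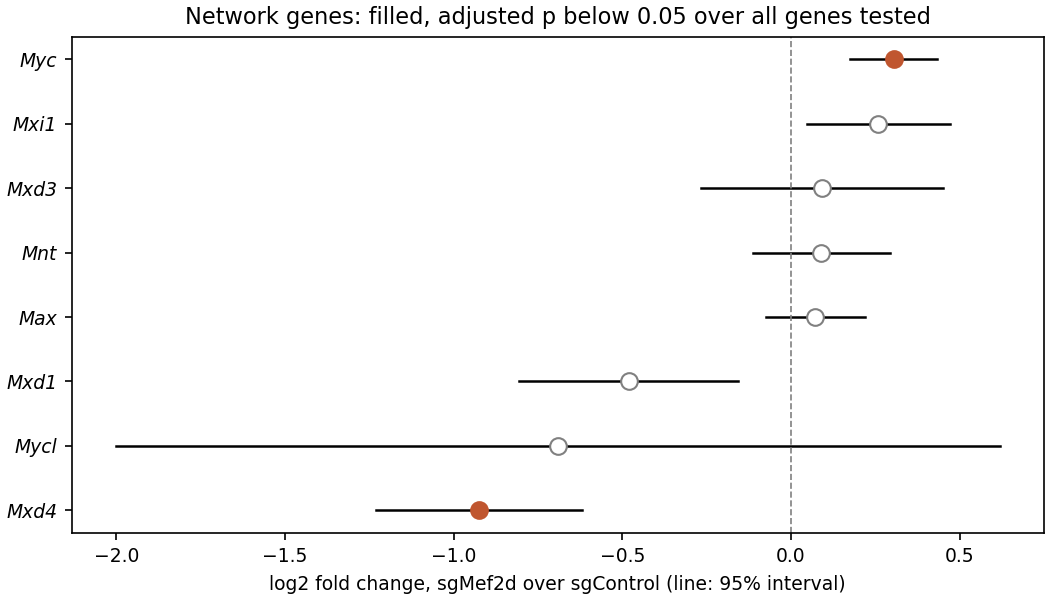
Log2 fold change of each network gene, sgMef2d over sgControl, with its 95% interval from the fit over all genes; filled points had an adjusted p below 0.05. Myc at 0.30 and Mxd4 at -0.93 are filled, the intervals of Mxi1 and Mxd1 leave out 0 while their points are open, and the interval of Mycl is the widest.

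To compare genes with each other, counts were divided by the length of the exons, which gives RPKM (CPM per kilobase of exon). In sgControl, Myc was the most abundant at 69.0 ± 2.41 RPKM (SD, n = 3), higher than 95.2% of all listed genes. Max followed at 16.8 ± 0.656 RPKM, then Mnt at 5.30 ± 0.408, Mxi1 at 3.40 ± 0.238, Mxd4 at 2.93 ± 0.498, Mxd3 at 2.33 ± 0.309, Mxd1 at 1.27 ± 0.139 and Mycl at 0.189 ± 0.0240 RPKM. Mxi1 and Mxd4, and Mxd4 and Mxd3, overlapped between libraries, while the other neighbours in this order did not. In sgMef2d, Mxd4 stood at 1.55 ± 0.126 RPKM (SD, n = 2) and Mxd3 at 2.51 ± 0.0699 RPKM without overlap, so Mxd4 ranked below Mxd3 there. With the longest transcript as the length, Mxd4 stood at 5.38 RPKM in sgControl beside Mnt at 5.34, so the place of Mxd4 depends on the length used.

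The balance of the network can be read as levels per length within each library. The ratio of Myc to Max RPKM was 3.82, 4.39 and 4.15 in the sgControl libraries and 4.86 and 4.79 in the sgMef2d libraries. The sum of Mxd1, Mxd3, Mxd4, Mxi1 and Mnt was 15.1, 16.1 and 14.5 RPKM in sgControl and 14.1 and 15.2 RPKM in sgMef2d, which overlapped. Within that sum, the share of Mxd4 was between 17.1% and 21.5% in sgControl and 10.3% and 10.8% in sgMef2d, and that of Mxi1 was from 20% to 24.3% in sgControl and 26.9% and 28.8% in sgMef2d. The ratio of Myc to the summed antagonists was 4.39, 4.36 and 4.87 in sgControl and 6.18 and 5.46 in sgMef2d, with the sgMef2d libraries above the sgControl libraries. These ratios and shares depend on the length used. With the longest transcript as the length, Myc stood at 80.2 and Max at 31.1 RPKM in sgControl, beside 69.0 and 16.8 RPKM over all exons. The ratios were not tested, and RNA levels do not give the amounts of the proteins.

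**Figure D3:**
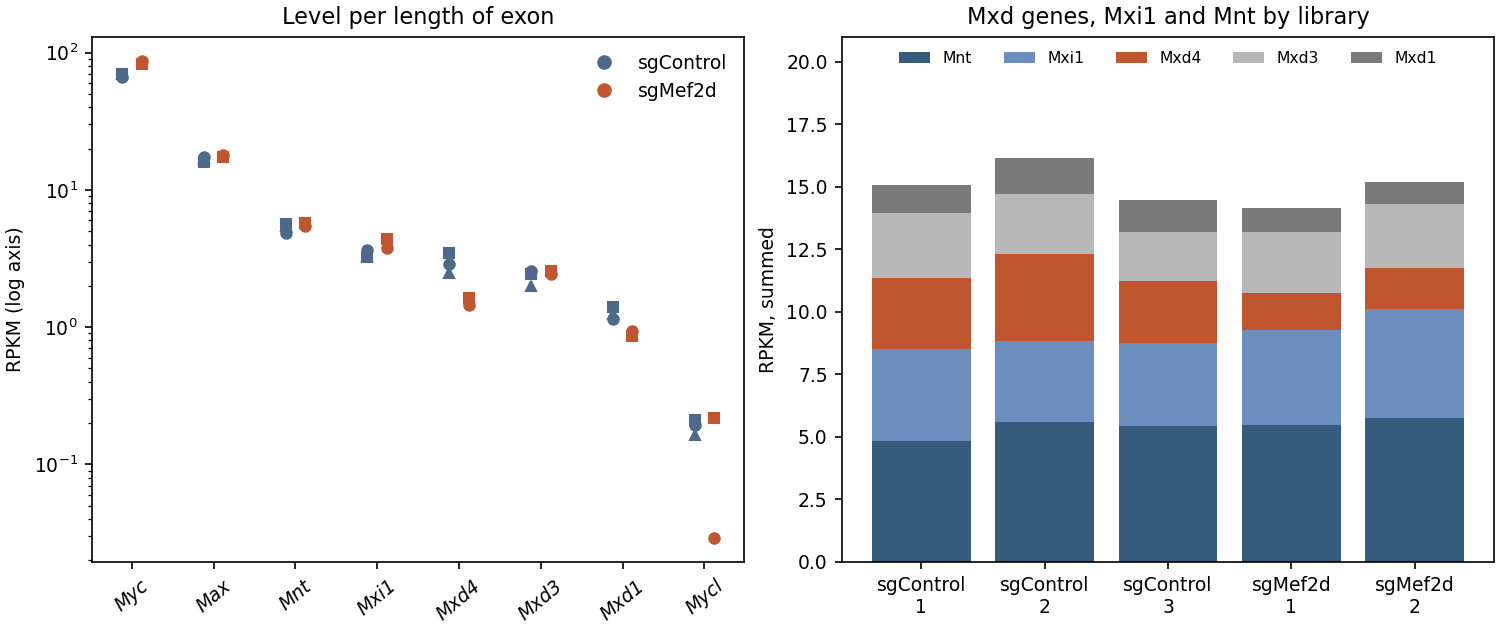
Left, the level per exon length of each network gene in RPKM on a log axis, 1 point per library, ordered by the sgControl mean, from Myc at 69.0 to Mycl at 0.189 RPKM. Right, the summed RPKM of Mnt, Mxi1, Mxd4, Mxd3 and Mxd1 in each library, where the totals overlap between 14.1 and 16.1 and the Mxd4 segment is thinner in both sgMef2d libraries.

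Since the network binds the E-box, the promoters of its own genes were searched for CACGTG. This sequence is its own reverse complement, so a match lies on both strands. RefSeq promoters on GRCm38.p6, from 250 bases before the start of transcription to 50 bases from the start on, were at hand for 9 of the 10 genes, with none for Myc. An E-box was found for 3 of these 9 genes, where 8.09% of all 27025 genes with a promoter have 1, as do 12.1% of the genes tested with a promoter. Counted by promoter, 7.15% of all 32851 hold 1. The 3 matches are shown because they place the element the network reads within the network itself, beside that of Mlx, whose protein replaces MAX in a parallel branch. Capitals mark the E-box, and each window reads 5′ to 3′ along the strand of the gene. The windows are chr12:76962226-76962271 (minus) for Max, chr5:34187904-34187949 (minus) for Mxd4, chr11:74830781-74830826 (plus) for Mnt and chr11:101087230-101087275 (plus) for Mlx.
Max: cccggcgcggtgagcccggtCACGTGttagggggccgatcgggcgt
Mxd4: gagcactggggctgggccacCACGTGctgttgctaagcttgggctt
Mnt: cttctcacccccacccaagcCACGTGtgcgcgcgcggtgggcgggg
Mlx: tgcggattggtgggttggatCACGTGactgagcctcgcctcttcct
The E-box begins 3 bases before the start of transcription in Max, 219 in Mxd4, 123 in Mnt and 40 in Mlx. Of these 4 genes, Mxd4 passed the threshold and Max, Mnt and Mlx did not. The consensus motif of the MEF2 factors, searched on both strands, was found for 0 of the 9 genes and for 1.92% of the genes tested that had a promoter. Neither search shows whether a factor binds.

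Pvt1, the non-coding gene next to Myc on chromosome 15 (62037986 to 62378096), did not rise beside it. Its level was 18.7, 17.3 and 16.9 CPM in sgControl and 16.5 and 14.7 CPM in sgMef2d, with both sgMef2d libraries below the sgControl libraries. The log2 fold change of Pvt1 was -0.18 (95% interval -0.41 to 0.05, edgeR adjusted p = 0.332), and its interval did not overlap that of Myc. It was -0.28 without sgMef2d replicate 1 and -0.10 without sgMef2d replicate 2. Among 8044 other genes whose average log2 CPM was 4 or more, the pattern over the 5 libraries was most like that of Myc in Fst, Rpl28, Rabep2, Rrp12 and Cd200. Likeness was the root mean square difference of centred log2 CPM, between 0.0196 and 0.0300 for these 5 genes and 0.170 at the median of all candidates. Fst encodes follistatin, an activin inhibitor, Rpl28 a ribosomal protein and Rrp12 a factor of ribosome assembly. Their log2 fold changes lay between 0.25 and 0.32, near that of Myc, which their selection on the same 5 libraries fixed.

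The genes that MYC is known to activate were read from a list of 51, all listed and tested. This list and those below were chosen with earlier results of these data known. Their shares beside all genes tested are therefore descriptive only. Past the threshold in the list of 51 were 2 higher genes and 0 lower, a share of 3.92% higher beside 3.67% of all genes tested, which is close to the background. The share includes Ccnd2, which was listed only through its sgMef2d counts, as given below. The log2 fold change was positive in 44 of the 51, where 50.7% of all genes were positive, and its median was 0.12. It was positive in 43 of the 51 without sgMef2d replicate 1 (median 0.117), where 6223 of 12683 genes were. It was positive in 44 of the 51 without sgMef2d replicate 2 (median 0.108), where 6285 of 12801 genes were. Both sgMef2d libraries lay above all sgControl libraries in 28 of the 51 genes and below them in 3, where 20.6% and 20.5% of all genes tested did so. At an unadjusted p below 0.05, 18 genes were higher and 1 lower, where 11.2% and 12.0% of all genes were (23.2% together). Without sgMef2d replicate 1, 4 of the 51 were at an unadjusted p below 0.05, where 14.1% of all genes were, and 1 passed the adjusted threshold, where 1.88% did. Without sgMef2d replicate 2, 2 of the 51 were at an unadjusted p below 0.05, where 12.4% of all genes were, and 0 passed the adjusted threshold, where 1.83% did. Without sgControl replicate 1, 35 of the 51 were higher past the adjusted threshold and 2 lower, where 14.6% and 14.8% of all genes were (29.4% together). With trends in transcript length and GC content taken out of every library, 8 were higher and 0 lower, where 5.38% of all genes were higher and 11.6% were called in either direction.

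The genes past the threshold were Ccnd2 and Slc1a5. Ccnd2, which encodes cyclin D2, had 10, 6 and 7 counts in the sgControl libraries and 33 and 32 in the sgMef2d libraries by the deposited table. Its mean rose to 2.05 ± 0.150 CPM (SD, n = 2), against 0.475 ± 0.0450 CPM (SD, n = 3) in sgControl. Its log2 fold change was 2.08 (standard error 0.333, edgeR adjusted p = 0.00325), at a low level in both groups. Every listed gene reached at least 11 counts in a library, and Ccnd2 did so only in sgMef2d. It was thus listed through the group where it is high, and its test is not independent of that. Slc1a5, a glutamine transporter, was at 48.3, 50.9 and 51.7 CPM and at 59.1 and 65.5 CPM (log2 fold change 0.31, edgeR adjusted p = 0.0241). Slc1a5 did not pass when sgControl replicate 2 (edgeR adjusted p = 0.0696) or either sgMef2d library was left out, and its alternatives spanned 2.13e-04 to 0.364. Ccnd2 did not pass without sgMef2d replicate 2, at 0.0544, the highest of its alternatives, which began at 5.93e-05. Some long-known targets were picked after their values were seen and did not pass the threshold. Odc1, the first enzyme of polyamine synthesis, had a log2 fold change of -0.05 (95% interval -0.21 to 0.10). Ncl, which encodes nucleolin, had 0.13 (95% interval -0.0015 to 0.27). Ldha, which encodes a subunit of lactate dehydrogenase, had 0.20 (95% interval 0.06 to 0.34, edgeR adjusted p = 0.0781). Of 42 genes of the list with a promoter at hand, 13 (31.0%) held an E-box, beside 12.1% of the genes tested with a promoter. No promoter was at hand for Ccnd2 or Slc1a5, so all 13 are genes that did not pass the threshold.

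Of the 16 genes that MYC is known to repress, 12 were listed and tested, and Cdkn1c, Cdkn2b, Ndrg2 and Cebpa were not listed. This list too was chosen with earlier results of these data known, so its shares are not an unbiased comparison. Past the threshold were 3 lower genes (25.0% of the 12, beside 4.28% of all genes tested) and 1 higher gene (8.33%, beside 3.67%), with a median log2 fold change of -0.05. This median was -0.08 without sgControl replicate 1, -0.03 without sgControl replicate 2, -0.02 without sgControl replicate 3 and -0.01 with the replicate block. Of the 12 log2 fold changes 5 were positive and 7 negative, and both sgMef2d libraries lay above all sgControl libraries in 3 genes and below them in 4, where 20.6% and 20.5% of all genes tested did so. Clu, which encodes the chaperone clusterin, fell from 48.4, 50.8 and 52.6 CPM to 32.4 and 36.3 CPM (log2 fold change -0.56, edgeR adjusted p = 0.00146). Cdkn1b, which encodes the cell cycle inhibitor p27, fell from 275, 269.7 and 270.4 CPM to 212 and 214 CPM (log2 fold change -0.35, edgeR adjusted p = 0.00254). Gadd45a, a stress response gene, fell from 32.2, 30.4 and 26.6 CPM to 22.4 CPM in each sgMef2d library (log2 fold change -0.42, edgeR adjusted p = 0.0240). Cdkn1a, which encodes the inhibitor p21 and is also a p53 target, rose from 46.5, 46.6 and 44.3 CPM to 65.6 and 65.3 CPM (log2 fold change 0.52, edgeR adjusted p = 7.88e-04). The groups did not overlap in any of these 4 genes, where 41.1% of all genes tested did not. Picking them by the threshold on the same libraries favours this. Cdkn1a kept its call in all 14 alternatives. Clu lost it without sgMef2d replicate 1 (adjusted p = 0.0534), Cdkn1b without either sgMef2d library (up to 0.0774) and Gadd45a without these and without sgControl replicate 2 (up to 0.211), all by edgeR. Of the 12, 5 were lower and 4 higher without sgControl replicate 1, where 14.8% and 14.6% of all genes were. Without sgMef2d replicate 1 or 2, 1 and 2 of the 12 were past the threshold in either direction, where 1.88% and 1.83% of all genes were.

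**Figure D4:**
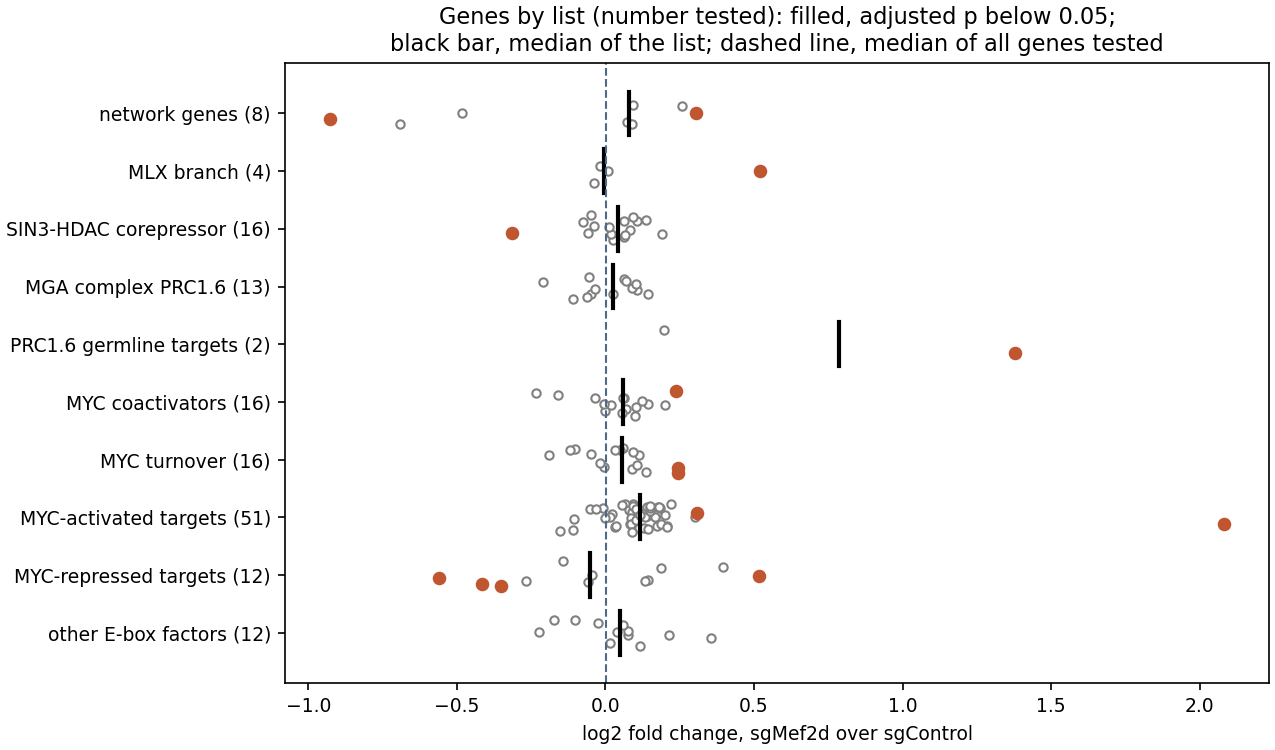
Log2 fold change of every tested gene of each list, 1 point per gene, filled where the adjusted p was below 0.05, with a black bar at the median of the list and a dashed line at the median of all genes tested. The MYC-activated list has its median at 0.12 with 2 filled points, Slc1a5 at 0.31 and Ccnd2 at 2.08, and the MYC-repressed list has filled points on both sides of 0.

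The partner lists together held 76 tested genes, of which 5 were higher and 1 lower past the threshold (6.58% and 1.32%, beside 3.67% and 4.28% of all genes tested). The median of their log2 fold changes was 0.06, and 0.03 both without sgMef2d replicate 2 and with the length and GC trend removed. In the branch around MLX, which senses glucose with MLXIP, Mlx and Mlxip had log2 fold changes of 0.0077 and -0.04 and did not pass the threshold. Txnip, a known target of that branch that restrains glucose uptake, rose from 12.9, 13.2 and 12.2 CPM to 17.7 and 19.1 CPM (log2 fold change 0.52, edgeR adjusted p = 0.00884). Arrdc4, the other target of the list, had -0.02 as its log2 fold change (95% interval -0.33 to 0.29, edgeR adjusted p = 0.956). Mlxipl was not listed.

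Of the 16 genes of the SIN3 and histone deacetylase corepressor, which the MXD proteins and MNT recruit, 1 passed the threshold, where 7.95% of all genes tested did. When sgControl replicate 1 was left out, 3 were higher and 1 lower, where 14.6% and 14.8% of all genes were. Arid4b, a subunit of the complex, fell from 76.3, 74.2 and 72.9 CPM to 59.7 and 60.2 CPM (log2 fold change -0.31, edgeR adjusted p = 0.0111). The scaffold genes Sin3a and Sin3b had log2 fold changes of 0.06 and -0.04, and Hdac1 and Hdac2 of 0.03 and 0.06, with 95% intervals within -0.16 and 0.22. Txnip and Arid4b each lost their call without either sgMef2d library, and the adjusted p spanned 1.56e-04 to 0.159 for Txnip and 1.60e-05 to 0.155 for Arid4b.

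The PRC1.6 complex, which MGA scaffolds, had 13 genes tested and 0 past the threshold in the edgeR test, with 1 lower at an unadjusted p below 0.05, where 12.0% of all genes tested were, and 0 past the threshold by DESeq2 and by limma-voom. When sgControl replicate 1 was left out, 3 of the 13 were higher and 1 lower, where 14.6% and 14.8% of all genes were. Of 11 germline genes that this complex is known to silence, 9 were not listed. Of the other 2, Tex101, which encodes a germ cell surface protein, rose from 2.39, 2.77 and 1.39 CPM to 6.24 and 5.25 CPM (log2 fold change 1.38, edgeR adjusted p = 0.00435), on 19 to 106 counts per library by the deposited table. Zcwpw1, a reader of histone methylation in meiosis, was at 97.2, 86.4 and 91.3 CPM and at 99.9 and 110 CPM (log2 fold change 0.20, edgeR adjusted p = 0.126), and passed when sgControl replicate 1 was left out or the length and GC trend was removed. Tex101 lost its call without sgMef2d replicate 1 (adjusted p = 0.0873), and the alternatives spanned 1.18e-06 to 0.0873.

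Among 16 coactivators of MYC, Ruvbl2, an ATPase of chromatin complexes, rose from 123, 122 and 117 CPM to 139 and 145 CPM (log2 fold change 0.24, edgeR adjusted p = 0.0294). Its partner Ruvbl1 (log2 fold change 0.14, edgeR adjusted p = 0.162) and Trrap, the scaffold of the acetyltransferase complexes (-0.23, edgeR adjusted p = 0.182), did not pass. Among 16 genes that act on the stability of MYC proteins, the mitotic kinases Plk1 and Aurka rose, by 0.24 each on the log2 scale (edgeR adjusted p = 0.0256 for Plk1 and 0.0328 for Aurka). The ubiquitin ligase genes Fbxw7 and Huwe1 had log2 fold changes of 0.05 and -0.19, which did not pass the threshold. Ruvbl2 and Aurka lost their calls when any single library other than sgControl replicate 1 was left out and with the replicate block. Plk1 also lost its call when any of those libraries was left out. Their adjusted p values over the alternatives ranged from 7.71e-06 to 0.366 for Ruvbl2, from 1.92e-06 to 0.392 for Aurka and from 2.56e-05 to 0.273 for Plk1. Past the threshold without sgControl replicate 1 were 4 higher and 2 lower of the 16 coactivators and 6 higher and 2 lower of the 16 stability genes, where 14.6% and 14.8% of all genes were. Of 12 other factors that read E-boxes, such as Usf1, Tfe3 and Clock, 0 passed the threshold in the edgeR test, with 3 at an unadjusted p below 0.05, where 23.2% of all genes tested were, and 0 passed by DESeq2 and by limma-voom. Of these 12, 1 was higher and 2 lower without sgControl replicate 1 (14.6% and 14.8% of all genes), 2 passed with the length and GC trend removed (11.6% of all genes) and 1 passed with the replicate block (10% of all genes). Of the 76 partner genes, 18 were higher and 8 lower past the threshold without sgControl replicate 1, where 14.6% and 14.8% of all genes were. Without sgControl replicate 2 or 3, 3 of the 76 passed in each case, where 4.84% and 6.51% of all genes did.

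**Figure D5:**
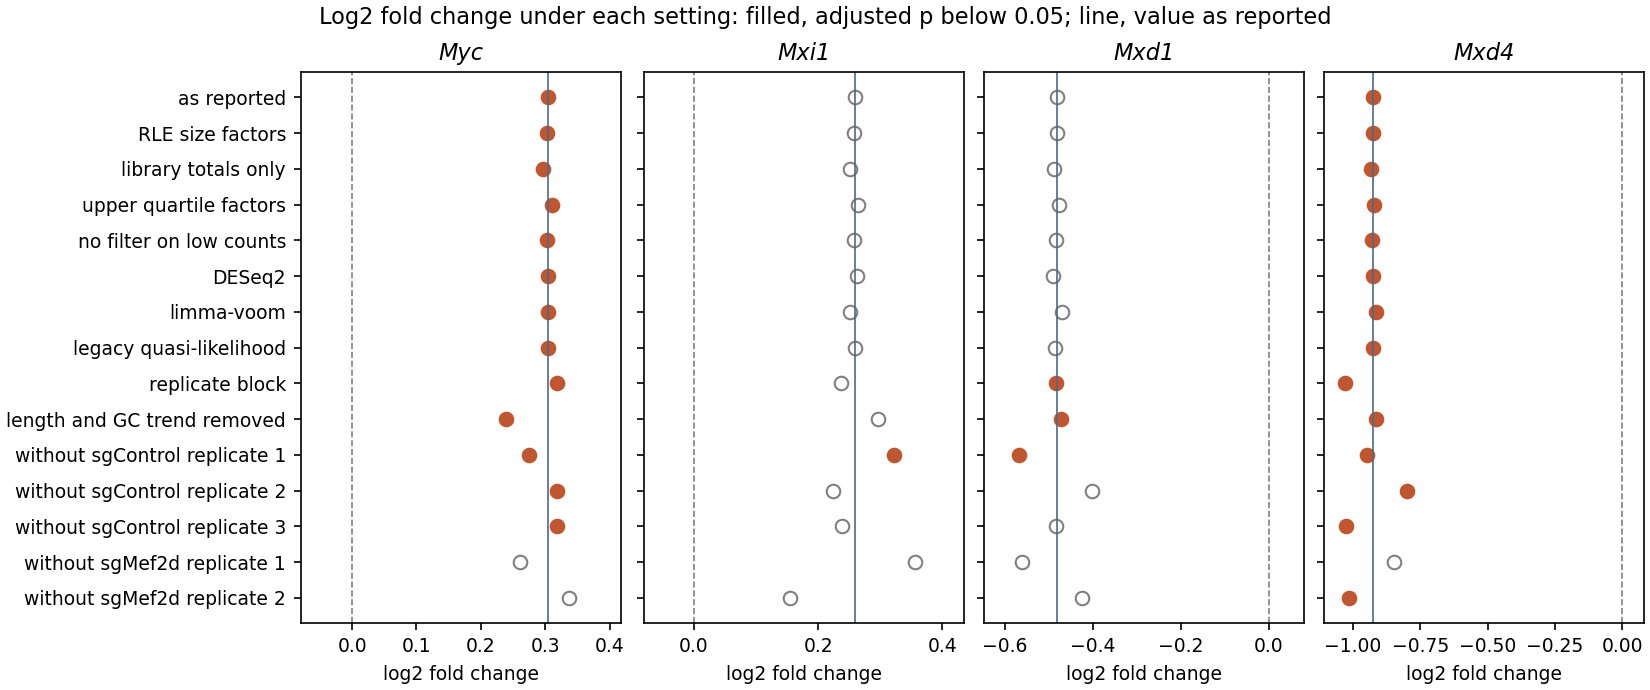
Log2 fold change of Myc, Mxi1, Mxd1 and Mxd4 as reported and under each of 14 alternatives, filled where the adjusted p was below 0.05, with a line at the value as reported. Every point lies on the same side of 0 as the reported value, Myc between 0.24 and 0.34 and Mxd4 between -1.03 and -0.80 over the alternatives, while Mxi1 is filled in 1 of them and Mxd1 in 3.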

How the data were processed

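Per the labels, polyA RNA of EpH4 cells was made into strand-marked libraries, 3 sgControl and 2 sgMef2d. The authors aligned the reads to GRCm38 with STAR, with CASAVA and Subread also named in the processing notes without versions, and deposited raw counts per gene, whole numbers without normalization. Each listed gene reached at least 11 counts in a library, so low genes had been removed before deposit. The table held 0 columns of values that went unused. All 12934 identifiers matched GENCODE M21.

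Libraries were grouped by their titles. Genes kept by the expression filter of edgeR 4.0.16 (R 4.3.3) by group, 12483 in all, were tested with TMM normalization and the bias-adjusted quasi-likelihood test, without a replicate block. The threshold was an adjusted p below 0.05 (Benjamini-Hochberg). Intervals are 95% and cover counting and replicate error as fitted. PCR copies were not identified. The network genes and lists were chosen with earlier results of these data known. Named from each list were up to 6 genes past the threshold with the smallest p, beside the network genes, Mef2d, Pvt1 and the 5 genes most like Myc. The values of other genes, Prelid1 and the further genes of the lists, were picked after they were seen.

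Alternatives were RLE, upper quartile and no factors, no filter, DESeq2 1.42.0, limma-voom (limma 3.58.1), the legacy quasi-likelihood form, the replicate block, removal of trends with transcript length and GC content (loess span 0.3), and leaving out each library. The fit was tested on simulated counts, where 81 of 96 genes changed by 1 on the log2 scale and 27 of 97 changed by 0.3 were recovered, with 11 calls among unchanged genes, of 12422 tested. The simulated libraries all varied alike, without an outlying library such as sgControl replicate 1, so these rates may not hold for the data.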

Additional observations from a re-analysis of the deposited data

How the results depend on the processing

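Of the network genes, counts were lowest for Mycl, and those of Ccnd2 were also low. With 2 sgMef2d libraries, leaving out either costs most calls. Leaving out 1 library in turn gave between 234 and 3639 genes past the threshold (992 with all libraries), between 0 and 4 of the network genes (2), between 0 and 37 of the MYC-activated targets (2), between 1 and 9 of the MYC-repressed targets (4) and between 0 and 26 of the partner genes (6). The count of 0 network genes, from edgeR's quasi-likelihood test without sgMef2d replicate 1, stood beside 4 at an unadjusted p below 0.05. DESeq2 and limma-voom over all libraries gave 2 each. The lone sgMef2d library is then assumed to vary like the other group. Without sgControl replicate 1 the highest of each of these counts was reached. With the length and GC trend removed, 8 MYC-activated targets and 10 partner genes were past the threshold, and the cause was not tested. The log2 fold change of Mycl ranged from -2.63 to 0.18 when 1 library was left out, with its sign turned without sgMef2d replicate 1, and that of Mxd3 without sgControl replicate 3 (-0.0015) and with the replicate block (-0.00050). Of the 112 values of the 8 network genes under the 14 alternatives, 102 kept their direction and side of the threshold, 4 passed it newly, 3 no longer passed it and 3 changed sign. The labels give no shared batch behind the replicate numbers. Same-numbered libraries had correlations of deviations of 0.0113 and -0.000916, so the numbers were not taken as pairs, and the replicate block gave 1254 genes and 3 of the 8 network genes. Replicate 3 exists only in sgControl, so the block takes up that library. Its values are close to those without sgControl replicate 3 (for Mxd4 -1.028 and -1.027), so these settings are not separate checks. The lowest edgeR adjusted p of Mxd4, 3.34e-15, came from the block, which leaves few degrees of freedom.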
